A study of Mus musculus with 4 samples.

Results

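The SOX-, PAX-, SIX- and POU-family genes encode 4 families of DNA-binding transcription factors that set the identity of progenitor cells in the embryonic head. They were taken as every gene on the array with a symbol in the numbered series of these families, such as Sox9, Pax3, Six2 or Pou3f3, measured by probe sets annotated to 1 gene. The rule found 43 genes, 19 SOX, 8 PAX, 5 SIX-family and 11 POU, among 18193 genes with such a probe set. All 43 were matched by Entrez identifier to RefSeq, where 49 genes carry a symbol of this form. Where a gene had several probe sets, the one with the highest mean signal over all arrays stood for it, and the 43 genes had 1 to 8 probe sets each.

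RNA from the mandible and maxilla (here called jaw) and from the brain of FoxO6-/- and WT neonatal mice, postnatal day 0 in the labels, was hybridized to 4 Affymetrix mouse expression arrays, with 1 array for each of FoxO6-/- jaw, WT jaw, FoxO6-/- brain and WT brain. In the targeted allele the whole FoxO6 coding region is replaced by LacZ and a neomycin cassette, and the mice were kept on C57BL/6. RNA from 4 animals was combined for each jaw array, so that the spread between animals was not measured, and the study's text gives a late embryonic stage for the jaw tissue and speaks of null and heterozygous animals among its mutants. Foxo6 itself has no annotated probe set here, which leaves the genotype of each array unchecked by its own signal.

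SOX proteins bind the minor groove through an HMG box and bend DNA, and they commonly act with a partner factor, often a POU protein. PAX proteins carry a paired domain, and SIX-family proteins a homeodomain beside a domain for binding partners. The SIX-family factors act with EYA and DACH cofactors in muscle, sensory organ and craniofacial progenitors. In the head, SOXB1 factors (Sox1, Sox2, Sox3) mark neural progenitors, SOXC factors (Sox4, Sox11, Sox12) mark differentiating neurons and mesenchyme, Sox9 with Sox5 and Sox6 directs cartilage, Pax3 and Pax7 mark neural crest and muscle progenitors, Pax9 is required for teeth and palate, and class III POU factors (Pou3f1 to Pou3f4) act in neural progenitors and neurons.

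Of the 43 genes, 32 had a promoter window in the RefSeq set (assembly GRCm38.p6, 250 bases before to 50 after the annotated start). 4 of these windows are shown here, all read 5′ to 3′ on the gene's strand, because the results below turn on these genes: Sox1 (chr8:12395269-12395568, + strand), Pou3f3 (chr1:42695518-42695817, + strand), Sox11 (chr12:27342669-27342968, - strand) and Sox5 (chr6:143947057-143947356, - strand). Capitals mark letters that match a binding motif of these families or of FOXO factors, searched on both strands.
Sox1: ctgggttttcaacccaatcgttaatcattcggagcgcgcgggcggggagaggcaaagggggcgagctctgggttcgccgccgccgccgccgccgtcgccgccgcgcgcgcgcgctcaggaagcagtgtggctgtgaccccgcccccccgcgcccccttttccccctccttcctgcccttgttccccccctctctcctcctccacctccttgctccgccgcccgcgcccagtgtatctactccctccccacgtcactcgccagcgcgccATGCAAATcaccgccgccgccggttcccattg
Pou3f3: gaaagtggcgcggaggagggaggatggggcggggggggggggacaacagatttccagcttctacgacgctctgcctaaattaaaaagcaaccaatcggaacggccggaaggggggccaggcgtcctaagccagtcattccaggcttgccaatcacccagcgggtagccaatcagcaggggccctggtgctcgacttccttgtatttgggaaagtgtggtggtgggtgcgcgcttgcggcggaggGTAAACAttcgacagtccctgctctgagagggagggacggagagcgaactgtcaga
Sox11: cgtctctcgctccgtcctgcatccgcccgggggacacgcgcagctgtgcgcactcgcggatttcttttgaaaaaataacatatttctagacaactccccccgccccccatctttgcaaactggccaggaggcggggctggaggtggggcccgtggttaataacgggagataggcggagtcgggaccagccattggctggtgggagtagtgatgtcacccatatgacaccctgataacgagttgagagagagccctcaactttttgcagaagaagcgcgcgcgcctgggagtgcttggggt
Sox5: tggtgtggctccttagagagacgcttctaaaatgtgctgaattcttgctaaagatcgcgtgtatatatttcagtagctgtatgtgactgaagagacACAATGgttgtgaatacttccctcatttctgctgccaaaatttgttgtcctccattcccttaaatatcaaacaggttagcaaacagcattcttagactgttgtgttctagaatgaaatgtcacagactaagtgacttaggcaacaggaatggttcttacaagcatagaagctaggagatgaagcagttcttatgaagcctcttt
The capitals in Sox1 are the POU octamer ATGCAAAT, those in Pou3f3 the FOXO motif GTAAACA and those in Sox5 the SOX motif ACAATG, while the Sox11 window held none of the 4 motifs. GTAAACA stood in the first annotated window of 2 of the 32 genes (Pou3f3 and Sox12), against 3.55% of 27025 mouse genes. ACAATG stood in 2 (Sox5 and Pax9), against 12.8% of all genes, ATGCAAAT in 2 (Sox1 and Sox12), against 1.75%, and the SIX-family motif TGATAC in 1 (Sox2), against 5.55%. The families' windows were rich in CpG: the observed over expected CpG ratio was at least 0.6 in 24 of the 32 genes (75%), against 36.5% of all genes. Of the windows printed, Sox1 had a ratio of 1.07, Sox11 of 0.817, Pou3f3 of 0.699 and Sox5 of 0.256. A match is a description of the letters, not of binding.

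Signals are MAS5 values on a linear scale, the summary of perfect-match over mismatch probes that Affymetrix software gives, with every array scaled to a trimmed mean of 500.0. Median signals were 100 (FoxO6-/- jaw), 110 (WT jaw), 91.9 (FoxO6-/- brain) and 102 (WT brain). A floor of 101, the median signal over the 4 arrays, set which genes were compared, since ratios of signals near background are unstable. The ratio of the 3′ to the 5′ probe set of Actb was 3.37 on the FoxO6-/- jaw array, against 2.23 on the WT jaw array, and 2.22 and 2.21 on the FoxO6-/- and WT brain arrays, so this measure of RNA integrity moved with genotype in the jaw and its part in the jaw ratios below was not tested.

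The labelled tissues were checked against marker lists. The tooth genes Dspp and Ambn had signals of 2346 and 5565 on the FoxO6-/- jaw array and 1597 and 3746 on the WT jaw array, and were at 66.3 or less on both brain arrays. The 8 skeletal muscle fibre genes had a median of 17880 (FoxO6-/-) and 19364 (WT) in jaw, but also of 6540 and 7834 on the FoxO6-/- and WT brain arrays. The brain arrays carried further RNA that is not neural: the bone gene Ibsp at 9445 (FoxO6-/-) and 10179 (WT), the lens crystallin gene Cryba1 at 11184 and 4630, and the pituitary hormone gene Gh at 4603 and 2976. The arrays labelled brain thus held markers of muscle, bone, eye and pituitary, and a lower level in jaw than in brain is relative to that mixture. In such bulk RNA, fewer cells of a type and less RNA per cell cannot be told apart.

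Signals of the families ranged from 0.477 to 23607, and 32 of the 43 genes had a mean over the 4 arrays at or above the floor: 16 SOX, 5 PAX, 4 SIX-family and 7 POU genes. Probe sets differ in affinity, so the order of signals between genes is not an order of RNA levels. Sox4 was the brightest, at 13306 and 11541 in FoxO6-/- and WT jaw and 23607 and 20235 in FoxO6-/- and WT brain, followed by Sox11 and Sox2. The 11 genes below the floor were Pax4, Pax5 and Pax8, Six6, Sox14, Sox15 and Sox30, and Pou2f2, Pou2f3, Pou4f3 and Pou5f1. Just inside it lay Sox3 (mean 104), Pax1 (118) and Pou4f1 (157), and just outside Six6 (74.6), Pou2f3 (70.5) and Sox15 (49.5). On single arrays, 25 genes reached the floor on every array, 9 on none, and 5 on both brain arrays and neither jaw array: Sox1, Sox3, Pou3f2, Pou4f1 and Six6. No gene reached it on both jaw arrays and neither brain array.

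**Figure D1:**
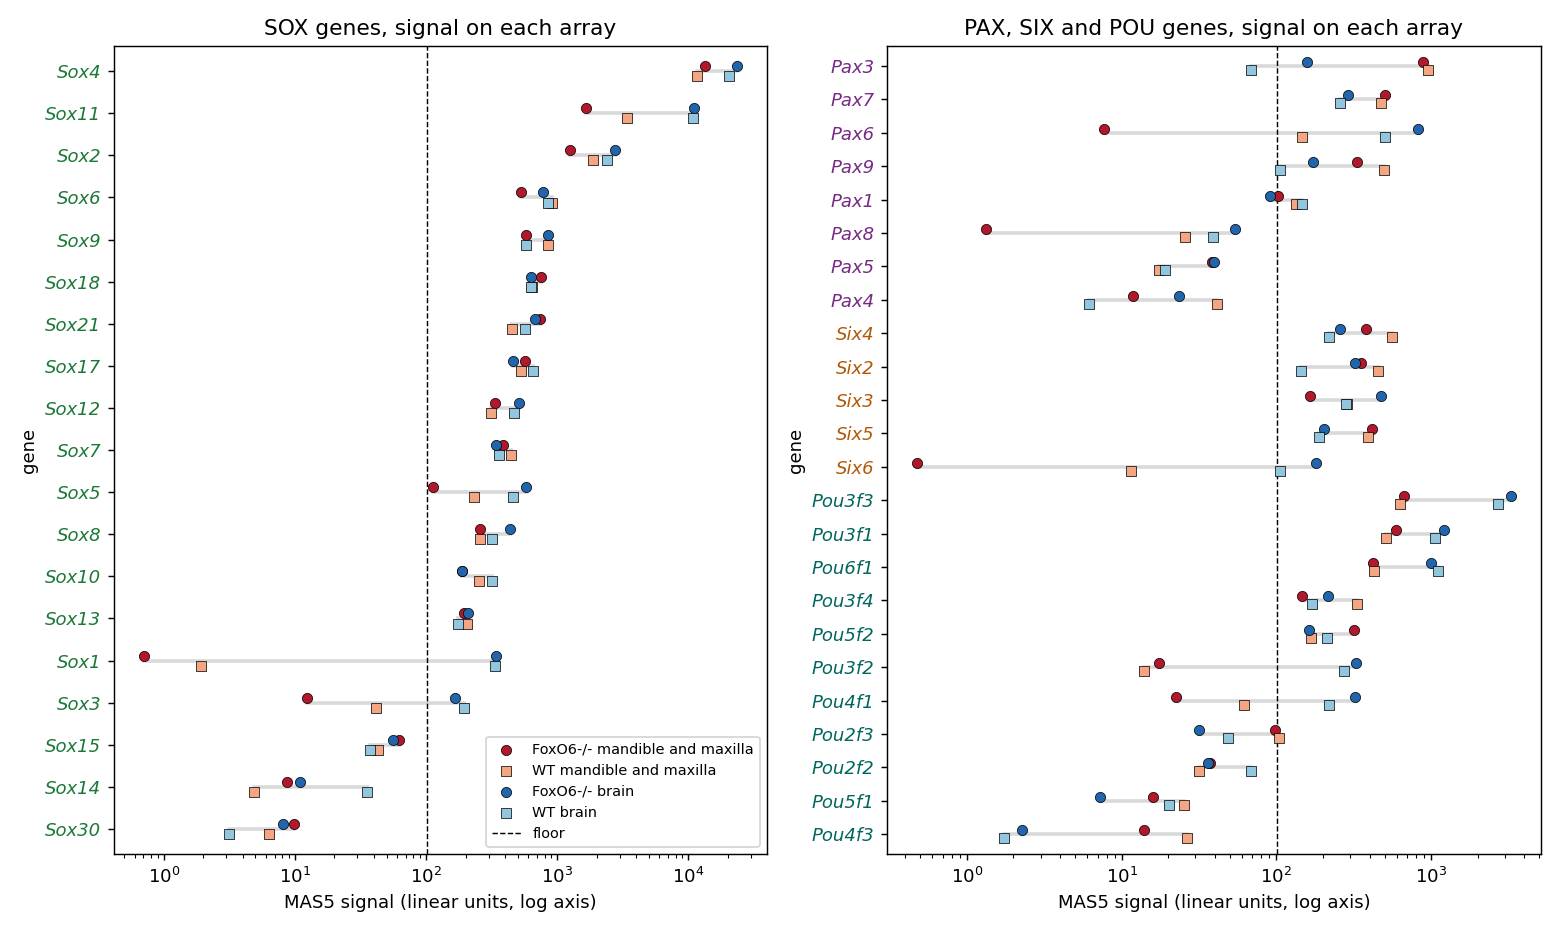
MAS5 signal (linear units on a log axis) of the 43 genes on each of the 4 arrays, by family and descending mean, with the floor of 101 as a dashed line. Circles are FoxO6-/- and squares WT arrays, red for mandible and maxilla and blue for brain. Sox4 lies at 11541 or above on every array, and Sox1 lies below 2 on both jaw arrays and at 334 or above on both brain arrays.

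The comparison of jaw with brain asked which of these factors mark the craniofacial tissue and which the brain. 3 of the 4 class III POU genes, Pou6f1 and the neural SOX genes Sox1, Sox3 and Sox11 were lower in jaw, while Pax3 and Six5 were higher in jaw, and the remaining 23 genes did not pass the test. A model with tissue and genotype as terms was fitted to the log2 signals of 12569 genes with limma, so that the 2 arrays of a tissue, 1 per genotype, were the only replicates and 1 residual degree of freedom was left. At an adjusted p under 0.05, 2 of the 32 genes were higher in jaw (Pax3 and Six5), against 6.48% of all genes tested. 7 of 32 were lower in jaw (Pou3f1, Pou3f2, Pou3f3, Pou6f1, Sox1, Sox3 and Sox11), against 8.73% of all genes. Counted without a test, as at least 2-fold in both genotypes, Pax3 and Six5 were again higher in jaw, against 5.37% of all genes. By this count 9 were lower, the 7 named with Pax6 and Pou4f1, against 8.46%. Of the genes lower in jaw, Pou3f2, Pou4f1, Sox1 and Sox3 reached the floor on the brain arrays alone. Pax6 reached it on both brain arrays and on WT jaw. These genes passed the floor through the tissue where they were high, so their place in the counts rests partly on that filter. With every gene tested and no floor, limma called 0 of 18193 genes, while 4 of the 43 genes passed 2-fold upward in both genotypes, against 6.39% of all genes, and 10 downward, against 8.46%. In the WT arrays alone 5 genes were at least 2-fold higher in jaw, Pax9, Six2 and Six4 beside Pax3 and Six5, against 8.53% of all genes, and 9 were at least 2-fold lower, against 9.85%.

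The POU family leaned most to the brain, with 4 of its 7 measured genes lower in jaw by limma, against 8.73% of all genes. In each genotype 6 of 7 had a ratio below 0, against 45.9% (FoxO6-/-) and 45.7% (WT) of all genes. Pou3f2 and Pou4f1, counted among them in both genotypes, reached the floor on the brain arrays alone. Pou3f3 (BRN1), which acts with Pou3f2 in cortical neurons, had signals of 670 in FoxO6-/- jaw and 627 in WT jaw, against 3269 in FoxO6-/- brain and 2691 in WT brain. Both jaw arrays lay below both brain arrays, by 4.58-fold on average (log2 ratio jaw over brain -2.19, SE 0.15, adjusted p = 0.0111). Pou3f2 (BRN2) was below the floor in jaw, at 17.5 and 13.9 in FoxO6-/- and WT, and at 326 and 275 in FoxO6-/- and WT brain. Against the floor, its brain level was at least 2.97-fold higher than in jaw (adjusted p = 0.00857).

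Pou3f1 (OCT6), known from Schwann cells and keratinocytes as well as neurons, had 593 and 510 in FoxO6-/- and WT jaw and 1217 and 1066 in FoxO6-/- and WT brain. The groups did not overlap, with a log2 ratio of -1.05 (SE 0.15, adjusted p = 0.0325), but a second Pou3f1 probe set lay below the floor and the mean of both probe sets was not called (adjusted p = 0.186). Pou6f1, a class VI POU gene of the nervous system, had 418 and 430 in FoxO6-/- and WT jaw and 992 and 1105 in FoxO6-/- and WT brain, a log2 ratio of -1.31 (SE 0.15, adjusted p = 0.0234). Pou4f1 (BRN3A), which marks sensory ganglion neurons, was below the floor in jaw at 22.3 and 61.5 in FoxO6-/- and WT, and had 324 and 220 in FoxO6-/- and WT brain. Its brain level was at least 2.65-fold higher against the floor, and limma did not call it (adjusted p = 0.0622).

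The other POU genes at or above the floor, Pou3f4 and Pou5f2, did not separate the tissues. Pou3f4, an X-linked gene of the inner ear and brain, had 147 and 334 in FoxO6-/- and WT jaw and 216 and 171 in FoxO6-/- and WT brain, so that the jaw arrays lay on either side of the brain arrays. Pou5f2, a testis-expressed POU gene, had 317 and 168 in FoxO6-/- and WT jaw and 162 and 212 in FoxO6-/- and WT brain. Pou2f3, known from skin and tuft cells, had 97.5 and 104 in FoxO6-/- and WT jaw and 31.7 and 48.6 in FoxO6-/- and WT brain. Both jaw arrays lay above both brain arrays, with log2 ratios of 1.62 in FoxO6-/- and 1.10 in WT. Its mean was below the floor, so it did not enter the main comparison. Of 11 sensory neuron genes listed with Pou4f1, 9 had a probe set, 6 were tested and 3 were lower in jaw (Prph, Avil and Ret), with none higher.

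Among SOX genes, those called lower in jaw were a pair of SOXB1 genes and a SOXC gene. Sox1 had signals of 0.703 and 1.92 in FoxO6-/- and WT jaw, at background, and of 344 and 334 in FoxO6-/- and WT brain, at least 3.37-fold higher in brain against the floor (adjusted p = 0.00902). Sox3, expressed like Sox1 in the neural tube, had 12.4 and 41.4 in FoxO6-/- and WT jaw and 167 and 193 in FoxO6-/- and WT brain, at least 1.78-fold higher in brain (adjusted p = 0.0362). Sox2, the third SOXB1 gene, also marks dental and taste epithelium. Its signal was 1258 and 1879 in FoxO6-/- and WT jaw and 2749 and 2387 in FoxO6-/- and WT brain, and the log2 ratio of -0.74 (SE 0.26) did not pass (adjusted p = 0.159).

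Sox11, the neuronal SOXC gene, had 1667 in FoxO6-/- jaw and 3393 in WT jaw, against 11092 in FoxO6-/- brain and 10775 in WT brain. It was 4.6-fold lower in jaw on average (log2 ratio -2.20, SE 0.32, adjusted p = 0.0362), and all 6 of its probe sets were lower in jaw, by -1.67 to -3.21 on the log2 scale over both genotypes. Sox4, its SOXC partner, was lower in jaw in both genotypes, by -0.83 (FoxO6-/-) and -0.81 (WT), and just missed the threshold (adjusted p = 0.0511). It passed under 6 of 9 other settings, with adjusted p between 0.0123 and 0.238 over them. Sox12, the third SOXC gene, had a log2 ratio of -0.59 (SE 0.15, adjusted p = 0.0906). Of 10 neuronal genes listed with the SOXC factors, 8 were lower in jaw by limma and none higher.

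The cartilage trio did not follow 1 pattern between tissues. Sox9, the master regulator of chondrocytes, had 575 and 843 in FoxO6-/- and WT jaw and 851 and 578 in FoxO6-/- and WT brain, a log2 ratio of -0.01 (SE 0.33, adjusted p = 0.987). Sox6 had 531 and 905 in FoxO6-/- and WT jaw and 775 and 857 in FoxO6-/- and WT brain (adjusted p = 0.522). Sox5, which also acts in cortical neurons, had 112 and 233 in FoxO6-/- and WT jaw and 581 and 461 in FoxO6-/- and WT brain, and its log2 ratio of -1.68 (SE 0.40) did not pass (adjusted p = 0.0856).

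Endothelial and neural crest SOX genes were near even between the tissues. The SOXF genes Sox7, Sox17 and Sox18, which act in blood and lymphatic endothelium, had log2 ratios of 0.24, -0.01 and 0.13, with adjusted p of 0.345 or more. Sox10, the neural crest, glial and melanocyte factor, had 187 and 254 in FoxO6-/- and WT jaw and 187 and 316 in FoxO6-/- and WT brain (adjusted p = 0.56). Among the Schwann cell and melanocyte genes listed with it, Erbb3 was higher in jaw while the melanin synthesis genes Dct, Tyr and Tyrp1 were lower in jaw. The brain arrays held eye tissue markers, and the part of pigmented eye cells in those levels was not tested.

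Among the 32 genes at or above the floor, Pax3 had the largest ratio towards the jaw. It had 884 in FoxO6-/- jaw and 949 in WT jaw, against 157 in FoxO6-/- brain and 68.1 in WT brain, 8.85-fold higher in jaw on average (log2 ratio 3.15, SE 0.38, adjusted p = 0.0262). The WT brain signal was below the floor, and with it set to the floor the log2 ratio was 2.86 (adjusted p = 0.00347). Its 3 probe sets were higher in jaw in both genotypes, by 1.22 to 3.80. Pax7, its paralog in muscle satellite cells, had 504 and 473 in FoxO6-/- and WT jaw and 290 and 258 in FoxO6-/- and WT brain, and stood at the threshold (log2 ratio 0.84, SE 0.15, adjusted p = 0.0501). Among 9 myogenic genes that act with or after Pax3 and Pax7, 6 were higher in jaw by limma, among them Myf6 (1409 and 1320 in FoxO6-/- and WT jaw, against 327 and 375 in FoxO6-/- and WT brain) and Myog.

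Pax9, expressed in tooth mesenchyme and palate, had 332 and 499 in FoxO6-/- and WT jaw and 173 and 105 in FoxO6-/- and WT brain. Both jaw arrays lay above both brain arrays, but the log2 ratio of 1.60 (SE 0.38) did not pass (adjusted p = 0.0862). Pax6, the regulator of eye and forebrain, had 7.64 in FoxO6-/- jaw and 146 in WT jaw, against 825 in FoxO6-/- brain and 501 in WT brain. It was lower in jaw in both genotypes, by -6.76 and -1.78, and the difference between these ratios left it short of the test (SE 1.36, adjusted p = 0.137). With signals below the floor set to it, the log2 ratio was -2.41 (adjusted p = 0.0131). Of the 10 lens and eye genes listed with Pax6, 7 were tested and 5 were lower in jaw, with Cryba1 at 5.66 and 3.45 in FoxO6-/- and WT jaw. Pax1, a gene of the vertebral column and thymus, was near the floor on all 4 arrays, at 91.1 to 147.

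Among SIX-family genes 1 of 4 measured genes passed. Six5 had 414 and 391 in FoxO6-/- and WT jaw and 203 and 188 in FoxO6-/- and WT brain, 2.06-fold higher in jaw (log2 ratio 1.04, SE 0.15, adjusted p = 0.033). Six4, which acts in muscle progenitors of the mouse, had 380 and 561 in FoxO6-/- and WT jaw and 259 and 219 in FoxO6-/- and WT brain (log2 ratio 0.96, SE 0.26, adjusted p = 0.106). Its brightest gene-specific probe set had a ratio of 1.31 (adjusted p = 0.0228). Six2, a marker of undifferentiated mesenchyme, had 352 and 454 in FoxO6-/- and WT jaw and 322 and 145 in FoxO6-/- and WT brain, so that 1 brain array lay near the jaw level and the other below it (adjusted p = 0.259).

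The forebrain and eye genes Six3 and Six6 had their highest signals in FoxO6-/- brain. Six3 had 164 and 286 in FoxO6-/- and WT jaw and 472 and 282 in FoxO6-/- and WT brain. Six6 was at background in jaw, 0.477 and 11.5 in FoxO6-/- and WT, and had 180 and 106 in FoxO6-/- and WT brain, at least 1.37-fold higher in brain against the floor. Of the 6 EYA and DACH cofactor genes, Dach2 was lower in jaw (adjusted p = 0.0359) and the others did not pass, with the ratio of Eya1 at 0.07 in FoxO6-/- and 1.75 in WT arrays.

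**Figure D2:**
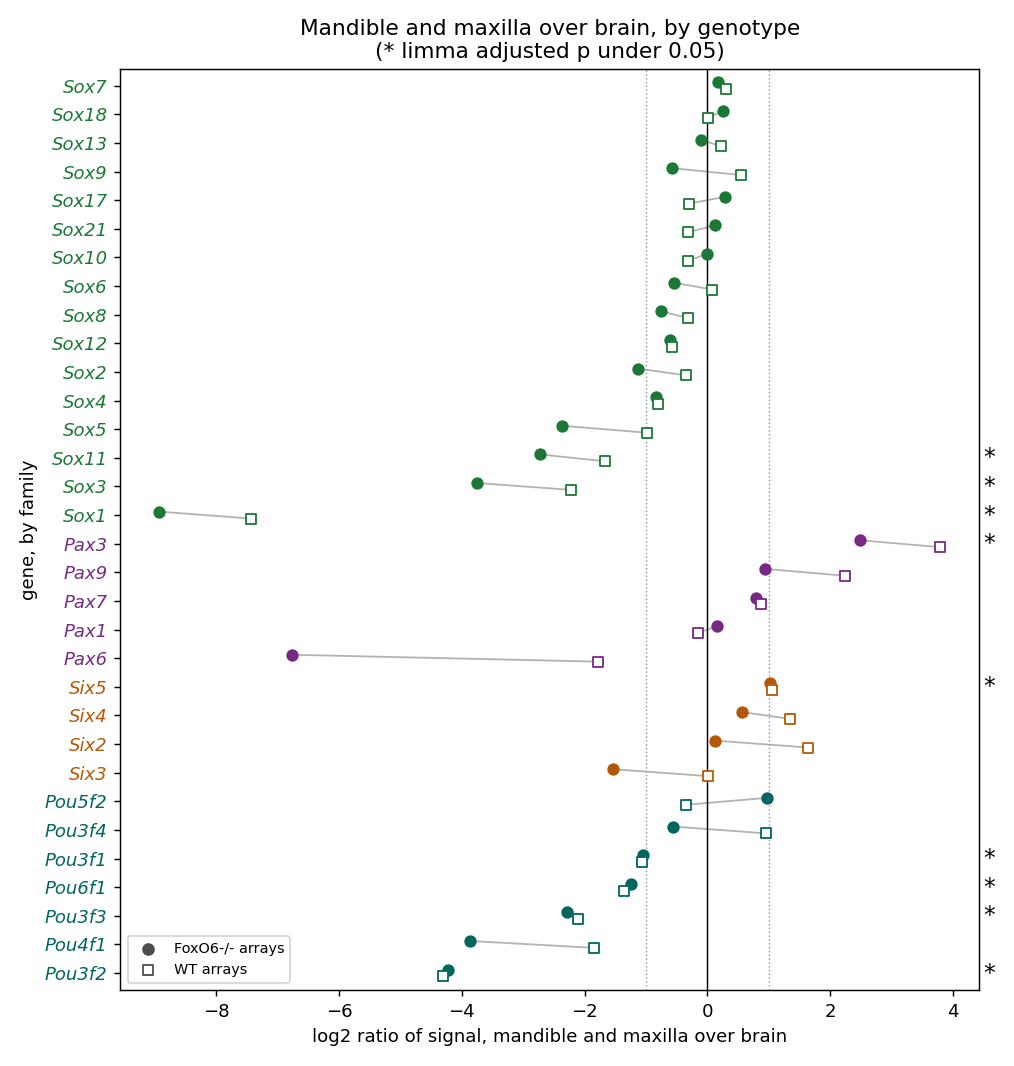
log2 ratio of signal, mandible and maxilla over brain, for the 32 genes at or above the floor, by family, with FoxO6-/- arrays as filled circles and WT arrays as open squares, dotted lines at 2-fold and an asterisk where limma's adjusted p was under 0.05. Pou3f1, Pou3f2, Pou3f3, Pou6f1 and Six5 have nearly the same ratio in both genotypes, while Pax6, Pax9, Six2 and Six3 differ between them.

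The comparison of FoxO6-/- with WT asked whether these factors differ without FoxO6 in each tissue. It rests on 1 array per group, so no difference within a tissue has a replicate check or a p-value, and a model over both tissues is given after the counts. In jaw 3 of 28 genes at or above the floor were at least 2-fold lower in FoxO6-/- (Pou3f4, Sox11 and Sox5), against 1.69% of 12186 genes, and 0 were at least 2-fold higher, against 0.591%. With arrays centred on their medians, 1.08% of all genes were lower and 1.03% higher, and the genes of these families were Pou3f4 lower and Pou5f2 higher. In brain 2 of 33 genes were at least 2-fold higher in FoxO6-/- (Pax3 and Six2), against 1.13% of 12327 genes, and 0 were at least 2-fold lower, against 2.03%. Median centring gave 1.83% of all genes higher and 1.55% lower in brain, with the same 2 genes of these families called.

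The median log2 ratio of the 28 genes in jaw was -0.10, with 11 higher and 17 lower in FoxO6-/-, beside -0.01 over all genes. With median centring, which moved the median of all genes by 0.13 in jaw, the median of these genes was 0.03, so its sign was not kept. In brain the median of the 33 genes was 0.22, with 25 higher and 8 lower, beside 0.05 over all genes, where 7061 of 12327 were higher. Both tissues in 1 limma model gave 0 of the 32 genes and 0% of all 12569 genes at an adjusted p under 0.05 for genotype, with the smallest adjusted p at 0.902. At an unadjusted p under 0.05 the model gave 588 genes, 4.68% of those tested, with Pax1 and Sox10 among them. On their brightest probe sets, Pax1 had ratios of -0.39 in jaw and -0.70 in brain and Sox10 of -0.44 and -0.76. The other Sox10 probe set at or above the floor had ratios of 0.37 and 0.28, the opposite sign.

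As a scale for these ratios, a pair of probe sets of the same gene differed with an SD of 0.415 (jaw) and 0.392 (brain) on the log2 scale over 4927 genes, and pointed the same way in 61% and 65.8% of them. This spread is between probe sets on the same arrays and leaves out animals and hybridizations.

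**Figure D3:**
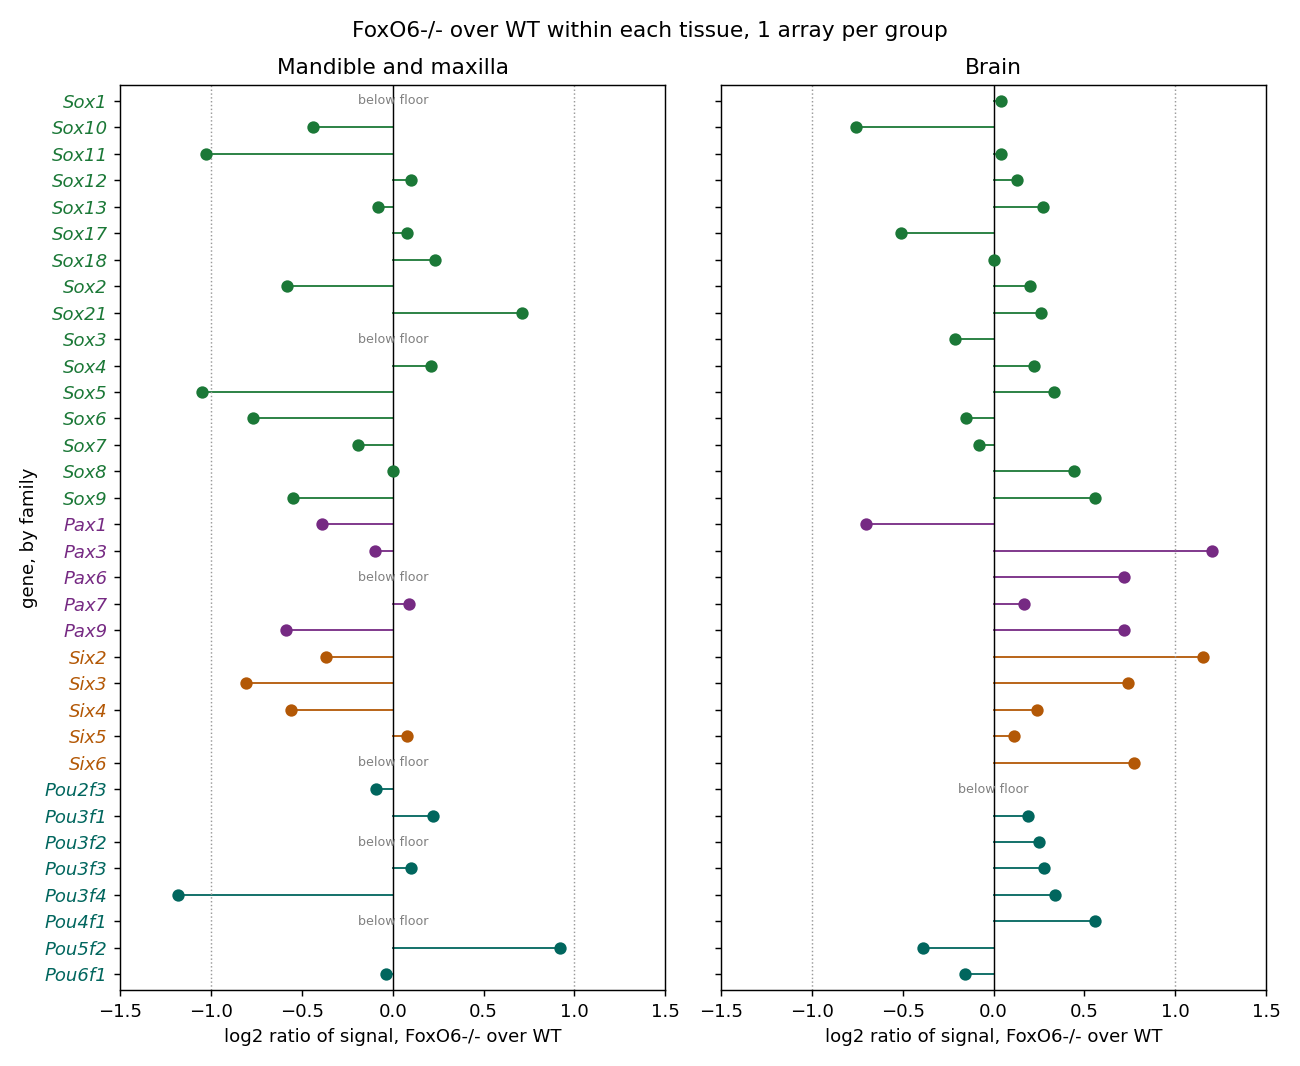
log2 ratio of signal, FoxO6-/- over WT, in mandible and maxilla (left) and brain (right), 1 array per group, for the genes at or above the floor in either tissue, with dotted lines at 2-fold. Sox11, Sox5 and Pou3f4 pass -1 in mandible and maxilla, Pax3 and Six2 pass 1 in brain, and all 5 SIX-family genes lie above 0 in brain.

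The SOX family had a median ratio of -0.13 over 14 genes in jaw, with 6 higher and 8 lower, and of 0.09 over 16 genes in brain, with 11 higher and 5 lower. Sox11 had 1667 in FoxO6-/- jaw and 3393 in WT jaw, 2.04-fold lower, and 11092 and 10775 in FoxO6-/- and WT brain. Its 6 probe sets did not give 1 value: in jaw 5 were lower, by -0.19 to -1.03, and 1 was higher by 0.87, and in brain they ran from -0.19 to 1.71. The mean of its probe sets gave a jaw ratio of -0.32. Sox4 had 13306 in FoxO6-/- jaw and 11541 in WT jaw, a ratio of 0.21, and its next brightest probe sets gave -0.48 and -0.39.

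Neuronal genes listed with the SOXC factors were lower in FoxO6-/- jaw in 9 of 10 cases, with a median of -0.74 and 3 past 2-fold, among them Elavl3 (127 in FoxO6-/- jaw, 433 in WT jaw) and Snap25 (63.4, 197). In brain all 10 were higher in FoxO6-/-, with a median of 0.35 and none past 2-fold. Olfactory epithelium genes, whose tissue borders the maxilla, were also lower: of 7 measured, 4 were at least 2-fold lower in FoxO6-/- jaw and 1 at least 2-fold higher (median -1.38), with Gng13 at 114 in FoxO6-/- jaw and 681 in WT jaw. The summed signal of the 8 olfactory genes was 2453 in FoxO6-/- jaw and 3864 in WT jaw, and 5551 in FoxO6-/- brain and 3410 in WT brain. The largest parts of the brain sums were Neurod1 (2027 in FoxO6-/-, 1349 in WT) and Gnal (1691, 1260). All 6 olfactory genes measured in brain were higher in FoxO6-/-, with a median of 0.51. Of these, 2 were at least 2-fold higher, Gng13 (395 in FoxO6-/- brain, 52.3 in WT brain) and Cyp2g1 (477, 56.8). The mean signal of Omp, the olfactory marker protein gene, was below the floor in both tissues. The part of nasal or neural tissue in the Sox11 ratio was not tested.

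Sox5, Sox6 and Sox9, which together switch on cartilage matrix genes, were each lower in FoxO6-/- jaw. Sox5 had 112 in FoxO6-/- jaw and 233 in WT jaw, 2.07-fold lower, with -0.25 on its other probe set at the floor. Sox6 had 531 in FoxO6-/- jaw and 905 in WT jaw (-0.77), with -0.64 and -0.19 on its other probe sets, and Sox9 had 575 in FoxO6-/- jaw and 843 in WT jaw (-0.55), with -0.23 on another. In brain the ratio was 0.33 for Sox5 (0.31 to 0.34 over 4 probe sets) and 0.56 for Sox9 (0.90 on its other probe set). For Sox6 it was -0.15, with -0.16 and 0.37 on its other probe sets at the floor. In jaw the ratios were negative on all 7 of the trio's probe sets at the floor. In brain those of Sox5 and Sox9 were positive, and the Sox6 probe sets differed in sign.

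All 11 cartilage genes that Sox9 is known to drive were lower in FoxO6-/- jaw, 5 of them at least 2-fold, with a median of -0.91, and all 11 were higher in FoxO6-/- brain, 2 at least 2-fold, with a median of 0.81. Matn1, a cartilage matrilin, had 383 in FoxO6-/- jaw and 1644 in WT jaw, against 4724 in FoxO6-/- brain and 1823 in WT brain. Col9a3, a chain of cartilage collagen, had 1662 in FoxO6-/- jaw and 4383 in WT jaw, and 4208 and 2203 in FoxO6-/- and WT brain, and Hapln1 had the second largest brain ratio, at 1.04. At the other end, Comp (-0.29) and Col11a1 (-0.37) had the smallest jaw ratios, and Comp (0.41) and Col11a2 (0.43) the smallest in brain. The amount of cartilage in each dissection was not measured otherwise, and its part in the Sox5, Sox6 and Sox9 ratios was not tested.

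**Figure D4:**
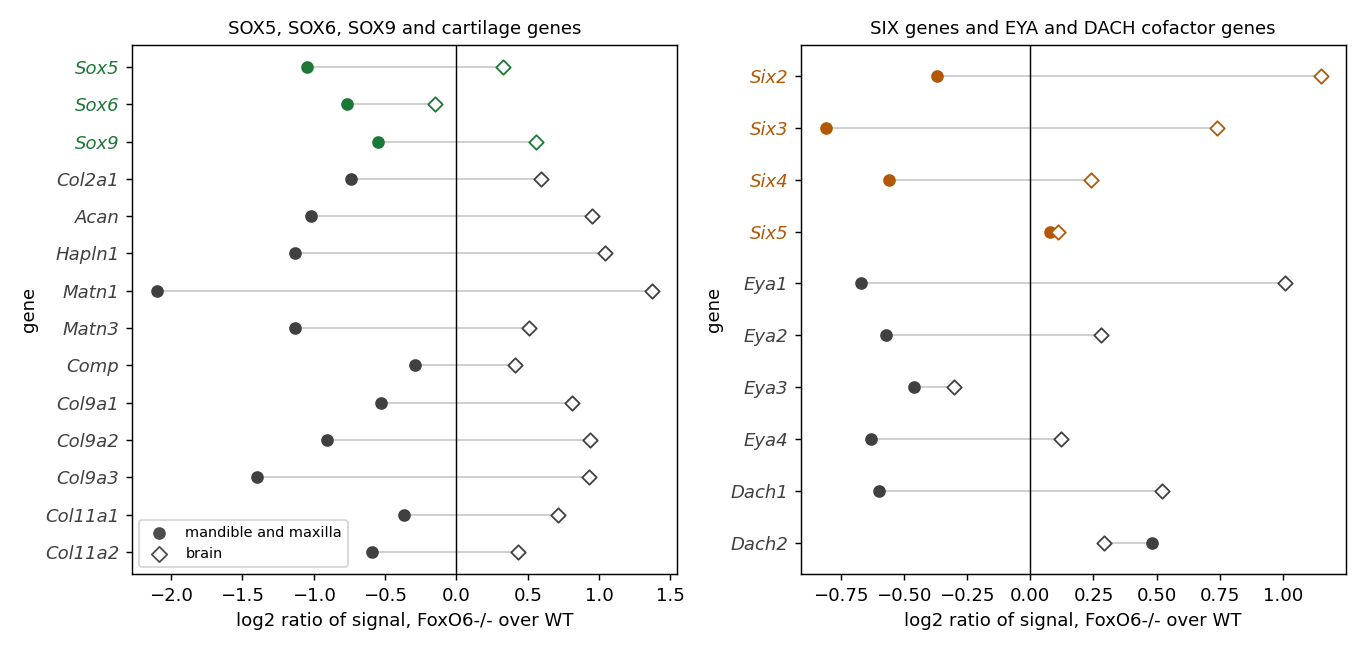
log2 ratio of signal, FoxO6-/- over WT, in mandible and maxilla (filled circles) and brain (open diamonds), for Sox5, Sox6 and Sox9 with 11 cartilage genes (left) and for 4 SIX-family genes with 6 EYA and DACH genes (right). All 11 cartilage genes lie below 0 in mandible and maxilla and above 0 in brain, and Six2, Six3, Six4, Eya1, Eya2, Eya4 and Dach1 do the same.

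Of the remaining SOX genes at or above the floor, none passed 2-fold in jaw or in brain. Sox2 had 1258 in FoxO6-/- jaw and 1879 in WT jaw (-0.58), while Sox21, a SOXB2 gene expressed in epithelium and brain, had 742 in FoxO6-/- jaw and 454 in WT jaw (0.71). The Sox10 probe sets differed in sign in both tissues, and 7 of 8 Schwann cell and melanocyte genes were higher in FoxO6-/- jaw, with a median of 0.30. Sox17 had 563 and 532 in FoxO6-/- and WT jaw and 461 and 654 in FoxO6-/- and WT brain (0.08 and -0.51). The endothelial genes listed with the SOXF factors were higher in FoxO6-/- jaw in 6 of 8 cases (median 0.22) and lower in FoxO6-/- brain in 8 of 9 (median -0.18).

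The PAX family had a median of -0.25 over 4 genes in jaw and of 0.72 over 5 genes in brain. Pax3 had 157 in FoxO6-/- brain and 68.1 in WT brain, 2.31-fold higher, from a WT signal below the floor, and its next probe set gave 180 and 96.3 (0.90). In jaw Pax3 had 884 in FoxO6-/- and 949 in WT, a ratio of -0.10. With signals below the floor set to it, the brain ratio was 0.64. The 9 myogenic genes were even in jaw (median 0.02) and lower in FoxO6-/- brain in 7 of 9 (median -0.18). All 8 muscle fibre genes were lower in FoxO6-/- brain, with a median of -0.28. The part of muscle tissue in the Pax3 brain ratio was not tested.

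Pax6 had 825 in FoxO6-/- brain and 501 in WT brain (0.72). In jaw it had 7.64 in FoxO6-/- and 146 in WT, and the mean of that pair was below the floor, so its jaw ratio was not counted. Lens and eye genes were higher in FoxO6-/- brain in 6 of 7 cases, 5 of them at least 2-fold, with a median of 1.27, and Cryba1 was at 11184 in FoxO6-/- brain and 4630 in WT brain. The part of eye tissue in the Pax6, Six3 and Six6 levels on the brain arrays was not tested. Pax9 had 332 in FoxO6-/- jaw and 499 in WT jaw (-0.59), and 173 in FoxO6-/- brain and 105 in WT brain (0.72). A second Pax9 probe set had 130 in FoxO6-/- jaw and 109 in WT jaw (0.25), the opposite sign. Dental mesenchyme genes were lower in FoxO6-/- jaw in 7 of 8 cases, with a median of -0.30, and higher in FoxO6-/- brain in 7 of 8, with a median of 0.34. Pax7 had ratios of 0.09 in jaw and 0.17 in brain.

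On their brightest probe sets all 5 SIX-family genes were higher in FoxO6-/- brain (median 0.74), beside 7061 of 12327 genes overall. In jaw 3 of 4 were lower in FoxO6-/- (median -0.46), beside 51.3% of all genes. Six2 had 322 in FoxO6-/- brain and 145 in WT brain, 2.21-fold higher, and 352 and 454 in FoxO6-/- and WT jaw. It has 1 probe set, so no second measure of it exists on these arrays. Six3 had 472 in FoxO6-/- brain and 282 in WT brain (0.74) and 164 in FoxO6-/- jaw and 286 in WT jaw (-0.81). Six4 had ratios of -0.56 in jaw and 0.24 in brain, with -0.24 and -0.34 on its second probe set, and Six5 had 0.08 and 0.11.

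The EYA and DACH cofactor genes were lower in FoxO6-/- jaw in 5 of 6 cases, with a median of -0.58, and higher in FoxO6-/- brain in 5 of 6, with a median of 0.28. Eya1, a phosphatase cofactor of SIX-family factors, had 802 in FoxO6-/- jaw and 1279 in WT jaw, and 766 in FoxO6-/- brain and 380 in WT brain. It was the 1 cofactor gene past 2-fold, in brain. Dach2 was higher in both tissues, by 0.48 and 0.29, and Eya3 lower in both, by -0.46 and -0.30.

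The POU family was near even, with a median of 0.03 over 6 genes in jaw and of 0.25 over 7 genes in brain. Pou3f4 had 147 in FoxO6-/- jaw and 334 in WT jaw, 2.27-fold lower, but its other probe set had 219 and 204 (0.10). Its probe sets had ratios of 0.34 and -0.28 in brain. Pou3f1, Pou3f2 and Pou3f3 were higher in FoxO6-/- brain by 0.19 to 0.28, and Pou3f1 and Pou3f3 in FoxO6-/- jaw by 0.22 and 0.10. Pou5f2 had 317 in FoxO6-/- jaw and 168 in WT jaw (0.92), the largest ratio upward in jaw, and 162 and 212 in FoxO6-/- and WT brain. Of 8 germ cell and testis genes, 7 were below the floor on every array. Pou4f1 had 324 in FoxO6-/- brain and 220 in WT brain (0.56).

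**Figure D5:**
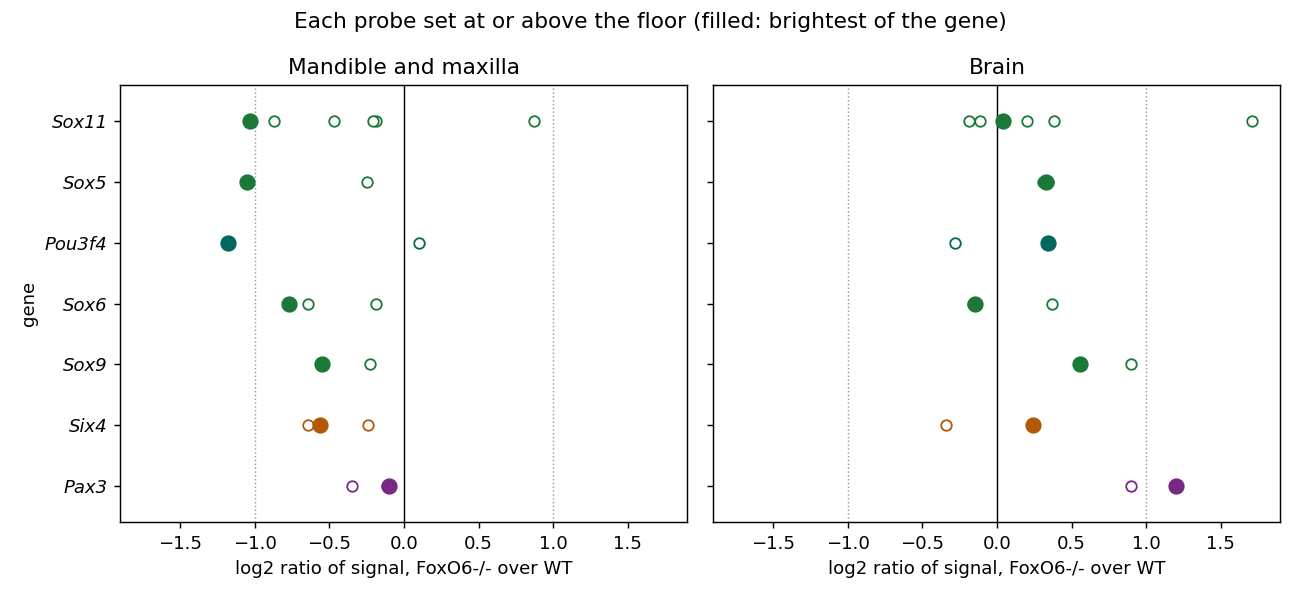
log2 ratio of signal, FoxO6-/- over WT, for each probe set whose mean signal in that tissue was at or above the floor, in mandible and maxilla (left) and brain (right), with the brightest probe set of each gene filled and dotted lines at 2-fold. The 6 Sox11 probe sets run from -1.03 to 0.87 in mandible and maxilla, and the Pou3f4 probe sets lie at -1.18 and 0.10.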

How the data were processed

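The deposited intensity values, as the authors made them, are MAS5 signals on a linear scale from Affymetrix mouse arrays, 1 array per tissue and genotype, scaled to a trimmed mean of 500.0. The MAS5 version was not given in the sources used here. Scanner files were not analysed here. Of 45101 probe sets, 34945 were annotated to 1 gene by the platform annotation, 932 to several and 9211 to none, and 13 named control probe sets were left out. The probe set with the highest mean signal stood for each gene, genes were compared when the mean of the arrays compared was at least 101, and ratios were taken on the log2 scale with no pseudocount. limma 3.58.1 in R 4.3.3 (lmFit and eBayes, tissue and genotype as terms, Benjamini-Hochberg adjustment) was the test, with 1 residual and 2.4 prior degrees of freedom, and was tested on simulated data. With genotype as a term, the 1 residual degree of freedom is the difference of the genotype ratio between the tissues. The p-values therefore measure that difference, moderated by a prior from all genes, and not a spread between animals. Python 3.11.15, numpy 2.4.6, pandas 2.3.3 and matplotlib 3.10.9 were used for the rest. The number of arrays limits the precision. Promoter windows came from RefSeq.

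The genes and the 21 marker lists were chosen with earlier results of these data known, and give no independent support. Any gene of the 4 families could be named, and from each marker list the highest and lowest 2 ratios, the defining markers and the genes behind counts of 5 or fewer. The alternatives changed the scaling (arrays quantile normalized, or centred on their medians), the floor (none, the 75th percentile, or low signals set to 101), the choice of probe sets (averaged per gene, or gene-specific ones alone) and the model (a variance trend, or 1 factor alone), with WT or FoxO6-/- arrays alone added after seeing the data. The authors' own fold changes were not used.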

Additional observations from a re-analysis of the deposited data

Results flagged for a closer look

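In 5 genes of the families the ratio of FoxO6-/- over WT was at least 2-fold in 1 tissue and had the opposite sign in the other. With 1 array per group, the difference between tissues was not tested. Sox5 had a log2 ratio of -1.05 in jaw and 0.33 in brain, a difference of -1.38. Sox11 had -1.03 in jaw and 0.04 in brain, a difference of -1.07. Pou3f4 had -1.18 and 0.34, a difference of -1.52, which its other probe set did not show (0.10 and -0.28). Pax3 had -0.10 in jaw and 1.20 in brain, a difference of -1.31, and Six2 had -0.37 and 1.15, a difference of -1.51. These are 5 of 27 genes measured in both tissues (18.5%), beside 257 of 11494 genes overall (2.24%). Other settings brought some of these ratios under 2-fold or turned a sign: Pax3 in brain was 0.64 with low signals raised to the floor and in jaw 0.03 with median centring, and Sox11 in jaw was -0.32 with its probe sets averaged and -0.89 with median centring. Sox5 in jaw was -0.96 with quantile normalization and -0.92 with median centring. Over the settings Pou3f4 in jaw ran from -1.18 to -0.54, and Six2 in brain from 1.15 to 1.29. Over the same arrays the 11 cartilage genes had a median of -0.91 in jaw and 0.81 in brain, and the Actb 3′ to 5′ ratio was 3.37 in FoxO6-/- jaw and 2.23 in WT jaw.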

How the results depend on the processing

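No paired analysis was possible because each group has 1 array and the labels carry no replicate numbers. Leaving out an array was not possible for the same reason, as the model would have no residual degree of freedom. No called or 2-fold ratio changed sign under any of the 9 alternatives. Of 254 jaw over brain ratios under them, 211 kept their direction and side of the threshold, 22 gained a call, 11 lost it and 10, none called, changed sign, and the cause was not tested. These 10 were Pax1 (-0.12 with quantile normalization and with median centring, -0.07 with low signals raised), Sox17 (0.03 with quantile normalization, 0.12 with probe sets averaged, 0.25 with gene-specific ones), Sox9 (0.03 with quantile normalization, 0.28 averaged), Sox21 (0.32 averaged) and Sox13 (-0.06 with median centring). FoxO6-/- over WT changed sign in 9 of 169 ratios in jaw and 4 of 196 in brain, all under 2-fold in the main setting, among them Sox4 in jaw (-0.32, averaged), Pou3f3 in brain (-0.76, averaged) and Six4 in brain (-0.34, gene-specific). Limma called 0 of the genes for genotype under every alternative run, and medians of FoxO6-/- over WT ran from -0.19 to 0.08 in jaw, positive with median centring (0.03) and with the floor at the 75th percentile (0.08), and from 0.13 to 0.37 in brain.

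Without a floor, limma called 0 genes higher and 0 lower in jaw than brain (of 43), and 4 were at least 2-fold higher in both genotypes; for FoxO6-/- over WT, 1 gene was at least 2-fold higher and 10 lower in jaw (7.78% and 7.87% of all genes), and 5 higher and 2 lower in brain (8.33% and 7.22%). A floor at the 75th percentile (524) left 11 genes in the tissue comparison. Limma then called 0 higher in jaw (10.7% of all genes), and 0 were at least 2-fold higher and 4 lower in both genotypes (4.45% and 6.44%). At least 2-fold, 1 was lower in FoxO6-/- jaw (0.621% of all genes) and 0 were higher in FoxO6-/- brain (0.476%). With low signals raised to the floor, limma called 4 higher and 11 lower in jaw (9.85% and 11.9% of all genes). In that setting 1 gene was at least 2-fold higher in FoxO6-/- brain (0.876% of all genes). With the mean of all probe sets, limma called 1 higher and 3 lower in jaw (4.99% and 5.47% of all genes). At least 2-fold, 3 were lower in jaw than brain in both genotypes (6.57% of all genes). For genotype, 0 were lower in FoxO6-/- jaw (2.19%) and 1 was higher in FoxO6-/- brain (1.92%). A variance trend, and the fit without genotype, each gave 4 higher in jaw (10.7% and 9.64% of all genes). Quantile normalization gave 1 gene at least 2-fold higher in FoxO6-/- jaw (1.01% of all genes). Median centring moved the median of all genes by -0.13 and -0.12 for jaw over brain in FoxO6-/- and WT. For FoxO6-/- over WT the shift was 0.13 and 0.14 in jaw and brain. This setting gave 1 gene at least 2-fold higher in jaw in both genotypes (4.57% of all genes). It gave 1 higher and 1 lower in FoxO6-/- jaw (1.03% and 1.08%). In the WT arrays alone 5 genes were at least 2-fold higher in jaw and 9 lower, and in the FoxO6-/- arrays alone 2 and 12 (7.74% and 11.9% of all genes).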

Other observations

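Transcripts that overlap genes of the families have probe sets of their own. Sox2ot, the long noncoding RNA whose introns hold Sox2, had signals of 86 and 84.5 in FoxO6-/- and WT jaw and of 361 and 343 in FoxO6-/- and WT brain. Six3os1, from the opposite strand next to Six3, had 1.65 and 53 in FoxO6-/- and WT jaw and 82.2 and 58.7 in FoxO6-/- and WT brain, below the floor on all 4 arrays. A probe set annotated to both 2900092D14Rik and Pou3f3, left out of the comparison for that reason, had 112 and 86.5 in FoxO6-/- and WT jaw and 531 and 509 in FoxO6-/- and WT brain, the same side as the Pou3f3 probe set used.

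Among genes known to depend on these factors, the thyroid gene Tg and the parathyroid gene Pth were at 28.8 and 10.1 in FoxO6-/- brain and at 626 and 668 in WT brain, and at 20.8 or less on both jaw arrays. Pax8, the thyroid PAX gene, was below the floor on all 4 arrays. The oligodendrocyte lineage gene Olig1 had 28.3 in FoxO6-/- jaw and 259 in WT jaw, and 1586 and 1150 in FoxO6-/- and WT brain. Of 5 oligodendrocyte genes measured in jaw, 4 were lower in FoxO6-/- and 1 higher, with a median of -0.07 and Olig1 alone past 2-fold. Olig2 had 14.6 in FoxO6-/- jaw and 123 in WT jaw, with a pair mean below the floor. Sox8, expressed in the same lineage, had 258 and 257 in FoxO6-/- and WT jaw and 433 and 320 in FoxO6-/- and WT brain. These values were chosen after they were seen and rest on 1 array per group.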
